A study of Mus musculus with 20 samples.

Results

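The genes followed here encode the dystrophin complex of the muscle fibre membrane together with sarcospan and caveolin-3: Dmd (dystrophin), Utrn (utrophin), Dag1 (dystroglycan), Sgca and Sgcb (alpha- and beta-sarcoglycan), Sspn (sarcospan) and Cav3 (caveolin-3). The members are all probe sets that the annotation of the MG_U74Av2 array assigns to one of these symbols, which gave 11 of the 12422 probe sets that are not controls and 7 of the 8252 genes with a symbol of their own. A probe set is a group of short probes that together read one transcript. No member probe set was shared with another symbol (0 of 11), 4 genes had 2 probe sets and 3 genes had 1. For genes with a pair, the probe set with the higher mean over all arrays is called probe set 1 and the other probe set 2. Identifiers ending in _s_at mark probe sets that the array's maker expects to match more than 1 transcript.

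Dystrophin links the actin cytoskeleton inside the fibre to dystroglycan in the membrane, and dystroglycan binds laminin in the basement membrane. The sarcoglycans and sarcospan form a subcomplex beside dystroglycan, and utrophin is the dystrophin relative that is concentrated at the neuromuscular junction of adult muscle. Caveolin-3 is the muscle form of the caveolins, which coat small membrane pits, and is known to bind dysferlin, a membrane protein needed to reseal tears in the fibre surface. Loss of dystrophin, of a sarcoglycan, of caveolin-3 or of dysferlin each causes a muscular dystrophy in humans.

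Total RNA of quadriceps muscle and of the left ventricle of the heart was hybridised to 20 arrays, in 4 groups of 5 arrays with 5 mice per group. All mice were females aged 32 to 34 weeks. The normal groups were C57BL/6 mice, and the dysferlin-deficient groups were SJL/J mice, an inbred strain whose dysferlin gene carries an in-frame deletion of 171 bp that removes 57 amino acids. Every SJL/J mouse differs from every C57BL/6 mouse in the whole strain background as well as in dysferlin, so genotype and strain cannot be told apart, and 0 probe sets are annotated to Dysf, so the dysferlin transcript itself was not measured here. For SJL/J quadriceps, titles and tissue labels say quadriceps while the free text of the same samples names the left ventricle. The arrays themselves bear on that label, as follows.

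A gap over 30 minutes between hybridisation times in the file headers was taken to start a new run, here called a fluidics run. This gave 5 runs. Run 3 held 4 arrays that stand apart: C57BL/6 left ventricle array 5, SJL/J left ventricle array 1 and SJL/J quadriceps arrays 1 and 5. SJL/J quadriceps arrays 1 and 5 carried heart muscle transcripts at 0.744 and 0.966 of the normal heart level (median over 7 of 8 heart markers, relative to C57BL/6 left ventricle outside run 3), and fast skeletal muscle transcripts at 0.559 and 0.506 of the normal quadriceps level. On SJL/J quadriceps arrays 2 to 4 the heart value was 0.0110 to 0.143 and the skeletal value 1.36 to 1.397. An index built from 50 probe sets that separate the strains in both tissues, members and run 3 left out, runs from about 0 in C57BL/6 to about 1 in SJL/J, and it read 0.475 for SJL/J quadriceps array 5. All remaining SJL/J arrays read 0.881 to 1.08, and the highest C57BL/6 array, left ventricle array 5, read 0.133. C57BL/6 quadriceps array 4 was hybridised in run 5 with SJL/J quadriceps arrays 2 to 4, while the other C57BL/6 quadriceps arrays made up run 1 on a chip lot of their own. SJL/J quadriceps array 1 was the only array with the other wash protocol. The ratio of the 5′ to the 3′ probe set of Gapdh, which falls when RNA is broken, was 0.697 to 0.866 in C57BL/6 and 0.101 to 0.470 in SJL/J left ventricle, without overlap, and 0.487 to 1.06 in C57BL/6 and 0.267 to 0.663 in SJL/J quadriceps. The strain differences of the tested members are therefore given with all arrays and without run 3. Without run 3, the C57BL/6 left ventricle arrays were all from run 2 and the SJL/J ones all from run 4. Strain and run thus cannot be told apart in left ventricle when run 3 is left out.

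Array probe sequences were not used here, so the sequences shown are the promoter windows of the 3 genes whose probe sets fell in SJL/J left ventricle (below): Sspn, Sgca and Cav3. All 7 member genes were found in the RefSeq promoter table of build GRCm38.p6, with 10 windows. Each sequence is the 250 bases before a RefSeq transcript start, 5′ to 3′ on the strand of the gene, and capitals mark matches to the E-box CANNTG, the core motif bound by MyoD-type muscle factors. The windows lie at chr6:145931623-145931872 and chr6:145933872-145934121 (plus strand) for Sspn, which has 2 annotated starts, at chr11:94976328-94976577 (minus strand) for Sgca and at chr6:112459255-112459504 (plus strand) for Cav3.
Sspn promoter 1: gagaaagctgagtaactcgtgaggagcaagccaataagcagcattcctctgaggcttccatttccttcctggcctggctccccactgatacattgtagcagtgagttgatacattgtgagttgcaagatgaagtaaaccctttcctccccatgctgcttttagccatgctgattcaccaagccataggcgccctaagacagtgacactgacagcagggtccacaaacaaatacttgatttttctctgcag
Sspn promoter 2: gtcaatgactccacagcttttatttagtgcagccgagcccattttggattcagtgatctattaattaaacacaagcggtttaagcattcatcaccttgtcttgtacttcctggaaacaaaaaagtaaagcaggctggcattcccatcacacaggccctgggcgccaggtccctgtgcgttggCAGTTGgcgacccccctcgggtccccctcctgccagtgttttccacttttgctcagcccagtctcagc
Sgca promoter: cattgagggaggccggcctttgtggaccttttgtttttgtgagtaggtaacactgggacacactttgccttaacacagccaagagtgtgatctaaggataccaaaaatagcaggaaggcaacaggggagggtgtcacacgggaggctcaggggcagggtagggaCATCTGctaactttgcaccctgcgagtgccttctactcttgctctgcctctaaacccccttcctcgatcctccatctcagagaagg
Cav3 promoter: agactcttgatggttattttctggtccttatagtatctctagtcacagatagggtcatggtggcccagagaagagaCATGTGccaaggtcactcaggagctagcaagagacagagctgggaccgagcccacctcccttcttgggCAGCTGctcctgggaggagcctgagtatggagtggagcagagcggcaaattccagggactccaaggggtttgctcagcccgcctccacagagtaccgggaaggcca

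Sspn promoter 1 held no E-box, Sspn promoter 2 and Sgca each held 1, and Cav3 held 2. Of 32851 windows of the same length in the table, 66.22% held at least 1, so the motif is common. A search on both strands for GATAA (in 22.58% of all windows), TATAAA (12.37%), GGGCGG (32.74%), the MEF2 motif (2.92%) and the CArG box (1.47%) found none of them in these 4 windows, and no E-box overlapped another motif. These letters describe the windows and name no bound factor.

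Of the 11 member probe sets, 9 from 6 genes had a mean above the median array signal of 68.8 in at least 1 group and were tested among 7121 probe sets. The fit was limma on log2 intensity, within the arrays compared, and called probe sets are those whose p, adjusted by Benjamini and Hochberg over all 7121, was under 0.05. Both Utrn probe sets stayed below that signal in every group and were not tested. Intensities are in arbitrary units that depend on the probes, so levels are compared between groups for a probe set and never between probe sets.

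With all arrays, the members called between dysferlin-deficient and normal mice were in the heart, where sarcospan was 4.66-fold lower in SJL/J, and where one of the paired probe sets of alpha-sarcoglycan and of caveolin-3 was 1.95-fold and 1.87-fold lower. Dystrophin, dystroglycan and beta-sarcoglycan were not called between the strains in either tissue with all arrays, and utrophin was too dim to test. Of the 9 tested probe sets 3 were called in left ventricle by limma, all lower in SJL/J (Sspn, Sgca probe set 2 and Cav3 probe set 2), against 32.1% of all 7121 in either direction and 16% lower. The same 3 did not overlap between the groups, against 21.7% of all (11.6% lower). The share of members called in left ventricle is thus near that of all probe sets, and without run 3 it was 4 of 9, with Sgca probe set 1 added, against 34.3%. In quadriceps 0 of 9 were called by limma, where 11.5% of all were, 1 of 9 (Sspn) had an unadjusted p under 0.05, against 27.5% of all, and 0 of 9 did not overlap, against 11.4% of all. Without run 3 the quadriceps count was 2 (Sspn lower, Cav3 probe set 2 higher) against 9.66% of all, and 3 (these and Dag1 probe set 1) did not overlap, against 21.2%. With run as a block, 1 of 9 (Sspn) was called in left ventricle, against 0.871% of all. In quadriceps this block compares SJL/J arrays 2 to 4 with C57BL/6 array 4 alone, and 4 of 9 were called by limma, against 16.4% of all: Dmd at 1.15 (adjusted p = 0.0482), Cav3 probe set 1 at 0.94 (adjusted p = 0.0064), Dag1 probe set 2 at -1.42 (adjusted p = 0.0045) and Sgca probe set 1 at -1.36 (adjusted p = 0.00095). The median log2 difference of the 9 members was -0.31 in quadriceps and -0.33 in left ventricle, and that of all tested probe sets 0.08 and 0.04. In whole tissue, fewer cells of a type and less RNA per cell cannot be told apart. Of the 8 heart muscle markers 4 rose and 1 fell in SJL/J left ventricle, where 32.1% of all probe sets were called. Their median log2 difference was 0.40. The level relative to normal heart, a median over 7 of these 8 markers, was 0.974 to 1.02 in C57BL/6 and 1.204 to 1.39 in SJL/J, without overlap. The part of heart muscle content in the member differences was not tested.

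**Figure D1:**
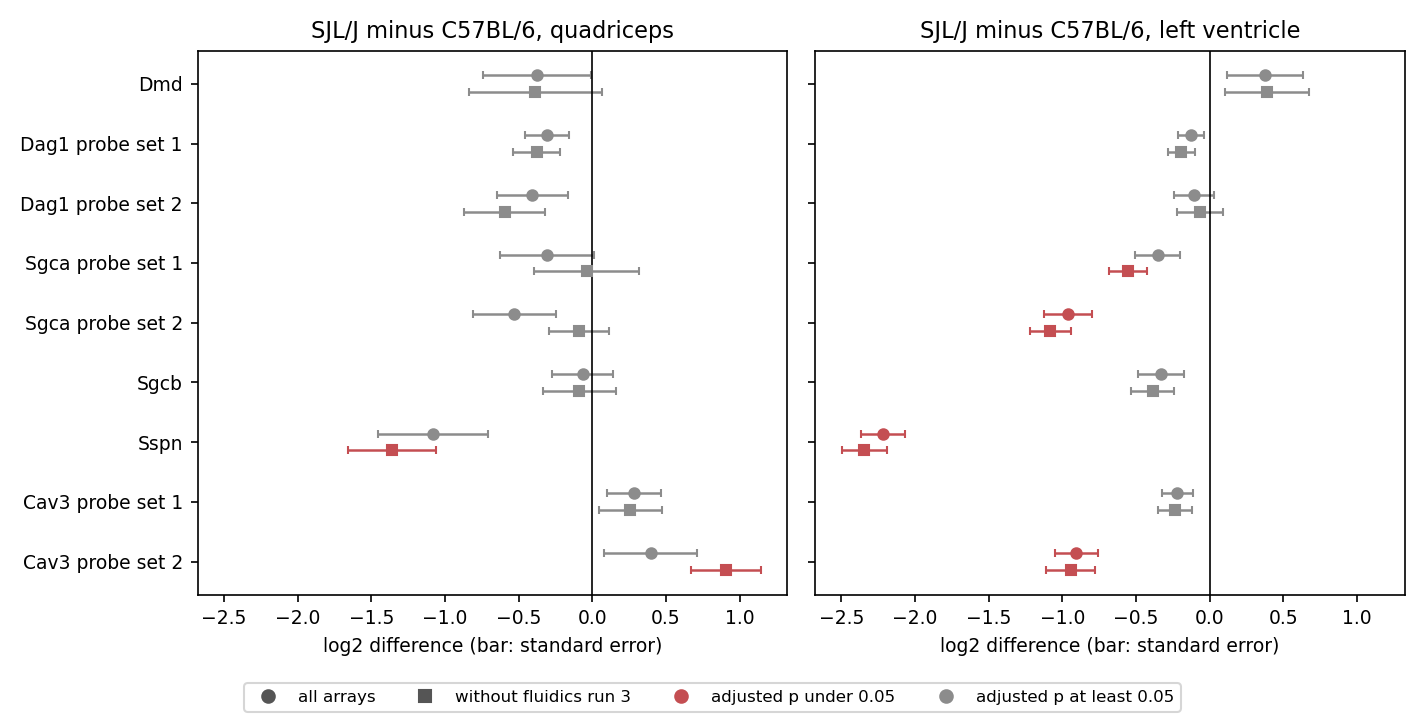
Log2 difference, SJL/J minus C57BL/6, of the 9 tested member probe sets in quadriceps and left ventricle, with bars for the standard error, circles for all arrays and squares without fluidics run 3. Red marks a limma adjusted p under 0.05. Sspn lies at -2.22 in left ventricle and -1.08 in quadriceps, and Cav3 probe set 2 lies on opposite sides of 0 in the tissues.

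Between tissues, 3 of 9 members were called in C57BL/6 (Sspn higher in heart, both Sgca probe sets lower) against 48.4% of all. All 3 did not overlap, against 35.6% of all. In SJL/J 3 of 9 were called, all lower in heart (both Sgca probe sets and Cav3 probe set 2), against 35.4% of all in either direction and 15.5% lower, and 1 (Cav3 probe set 2) did not overlap, against 21.3% of all. Without run 3 the SJL/J count was 4 against 52.2%, with Cav3 probe set 1 added, and the C57BL/6 count was 2 against 43.4%. In the interaction of strain and tissue 1 of 9 was called, against 14.5% of all, and 2 of 9 without run 3 (Cav3 probe set 2, and Sgca probe set 2 at 0.99 with a limma adjusted p of 0.0113) against 18.6%. These comparisons share arrays and do not count as independent of each other.

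Dystrophin was read by a single probe set (93623_at), and overlapped between the strains in both tissues. Dmd read 199.6, 243, 135, 52 and 228 in C57BL/6 and 135.5, 116, 133, 99.6 and 102 in SJL/J quadriceps, and ran from 69.5 through 88.2 to 152 in C57BL/6 and from 83.9 through 124.5 to 176 in SJL/J left ventricle. C57BL/6 quadriceps array 4 was the lowest of all 20 arrays, and the other 4 arrays of its group lay between 135 and 243. The strain difference in quadriceps was -0.38 ± 0.36 (SE, limma, adjusted p = 0.537) with that array and -0.76 (limma, adjusted p = 0.0264) without it, and with run as a block, which compares SJL/J arrays with that array alone, it was 1.15 (limma, adjusted p = 0.0482). In left ventricle it was 0.37 ± 0.26 (limma, adjusted p = 0.290). Leaving out run 3 gave -0.39 and 0.39 (limma, adjusted p = 0.652 and 0.318). The sign of Dmd in quadriceps turned with blocks for run and for chip lot, where array 4 was the only C57BL/6 array compared. It also turned with the Gapdh ratio as a covariate, a fit that kept all C57BL/6 quadriceps arrays.

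Utrophin was dim throughout. Utrn probe set 1 (92507_at) ran from 9.4 to 77.3 and probe set 2 (92508_s_at) from 8.7 to 55.7 over the 20 arrays, with the highest group means, 52.5 ± 19.4 and 46.3 ± 5.29 (SD, n = 5), in C57BL/6 left ventricle. Fitted without the filter on dim probe sets, among 12422, neither was called in any comparison, and the strain differences in left ventricle were -0.71 ± 0.37 (SE, limma, adjusted p = 0.238) and -1.25 ± 0.41 (limma, adjusted p = 0.0640). In quadriceps they were -0.46 ± 0.48 and -0.35 ± 0.50 (limma, adjusted p = 0.657 and 0.756).

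Dystroglycan, whose precursor is cut into the laminin-binding alpha and the membrane-spanning beta subunit, was not called in any comparison with all arrays. Dag1 probe set 1 (101109_at) ran from 1964 through a median of 2477.5 to 2795 in C57BL/6 quadriceps, from 1841 through 1911 to 2146.5 in SJL/J quadriceps, from 2251 through 2499 to 2665 in C57BL/6 left ventricle, and from 1959 through 2290.4 to 2450.2 in SJL/J left ventricle. Its strain difference was -0.31 ± 0.15 (SE, limma, adjusted p = 0.198) in quadriceps and -0.13 ± 0.09 (limma, adjusted p = 0.288) in left ventricle. Dag1 probe set 2 (161183_at) differed by -0.41 ± 0.24 (limma, adjusted p = 0.297) and -0.11 ± 0.13 (limma, adjusted p = 0.576). Quadriceps and left ventricle differences without run 3 were -0.38 and -0.19 for probe set 1 (limma, adjusted p = 0.174 and 0.133) and -0.59 and -0.06 for probe set 2 (limma, adjusted p = 0.206 and 0.775). With each array centred on its median, Dag1 probe set 1 in quadriceps was at -0.46 (limma, adjusted p = 0.0464).

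Alpha-sarcoglycan, a sarcoglycan of striated muscle, is read by a pair of probe sets. Probe set 2 (103395_at) gave 319, 293, 305, 342 and 345 on the C57BL/6 left ventricle arrays and 246, 185, 131, 149.7 and 134 on the SJL/J left ventricle arrays, and these ranges did not overlap. Probe set 1 (160631_s_at) gave 759, 752, 890.5, 915 and 597 in C57BL/6 and 813.5, 639, 476, 638 and 516 in SJL/J left ventricle. Its highest SJL/J value and its lowest C57BL/6 value both came from run 3, and the groups overlapped.

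Probe set 2 of Sgca was 1.95-fold lower in SJL/J left ventricle, with a log2 difference of -0.96 ± 0.16 (SE, limma, adjusted p = 0.00093, and -1.08 with adjusted p = 0.00023 without run 3). Probe set 1 differed by -0.35 ± 0.16 (limma, adjusted p = 0.0986), and by -0.55 ± 0.13 (limma, adjusted p = 0.0069) without run 3. With run as a block, which rests on the single array of each strain in run 3, neither was called, and the values were -0.49 (limma, adjusted p = 0.569) for probe set 2 and 0.45 (limma, adjusted p = 0.572) for probe set 1. Fitted with the Gapdh covariate, probe set 2 was at -0.09 (limma, adjusted p = 0.946).

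In quadriceps Sgca probe set 2 read 704, 553, 485, 735 and 404 in C57BL/6 and 201, 508.5, 532, 542 and 303 in SJL/J, where the 2 low values are the run 3 arrays with heart transcripts. The log2 difference was -0.53 ± 0.28 (SE, limma, adjusted p = 0.249), and -0.09 ± 0.21 (limma, adjusted p = 0.826) without run 3. Probe set 1 read 1075, 1180.1, 1049, 3319 and 946 in C57BL/6 and 817, 1335, 1352, 1203.5 and 803 in SJL/J. The value of 3319 on C57BL/6 array 4 stood far above the other 4, and the log2 difference was -0.31 ± 0.32 (limma, adjusted p = 0.561) with it and 0.02 without it, and -0.04 (limma, adjusted p = 0.962) without run 3.

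Both Sgca probe sets were lower in heart than in quadriceps. In C57BL/6 the log2 difference between left ventricle and quadriceps was -0.81 ± 0.17 (SE, limma, adjusted p = 0.0016) for probe set 2 and -0.78 ± 0.30 (limma, adjusted p = 0.0439) for probe set 1, without overlap for either. The call for probe set 1 was lost without run 3 (limma, adjusted p = 0.0986), and without array 4 of C57BL/6 quadriceps the difference was -0.45 (limma, adjusted p = 0.0139). It held in 4 of 10 fits with 1 array left out and in 5 of 9 other alternatives, always with a negative difference. In SJL/J they differed by -1.25 ± 0.29 (limma, adjusted p = 0.0070) and -0.83 ± 0.20 (limma, adjusted p = 0.0081), and without run 3 by -1.83 (limma, adjusted p = 9.0e-06) and -1.20 (limma, adjusted p = 5.9e-05). With run as a block both were near 0, at -0.0058 for probe set 2 and 0.0066 for probe set 1. That block compares left ventricle array 1 with quadriceps arrays 1 and 5 of run 3. These 2 quadriceps arrays carried heart transcripts at 0.744 and 0.966 of the normal heart level, so the block cannot show whether the tissues differ.

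Beta-sarcoglycan (Sgcb, 93898_at), which is made in many tissues, was not called in any of the 5 comparisons with all arrays. Its values ran from 123 through a median of 150.1 to 232 in C57BL/6 quadriceps, from 116 through 167 to 174 in SJL/J quadriceps, from 174 through 195.5 to 232 in C57BL/6 left ventricle, and from 124.5 through 147 to 215 in SJL/J left ventricle. The strains overlapped in both tissues, and the strain difference was -0.07 ± 0.21 (SE, limma, adjusted p = 0.868) in quadriceps and -0.33 ± 0.16 (limma, adjusted p = 0.127) in left ventricle. Without run 3 these were -0.09 and -0.39 (limma, adjusted p = 0.864 and 0.0628).

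**Figure D2:**
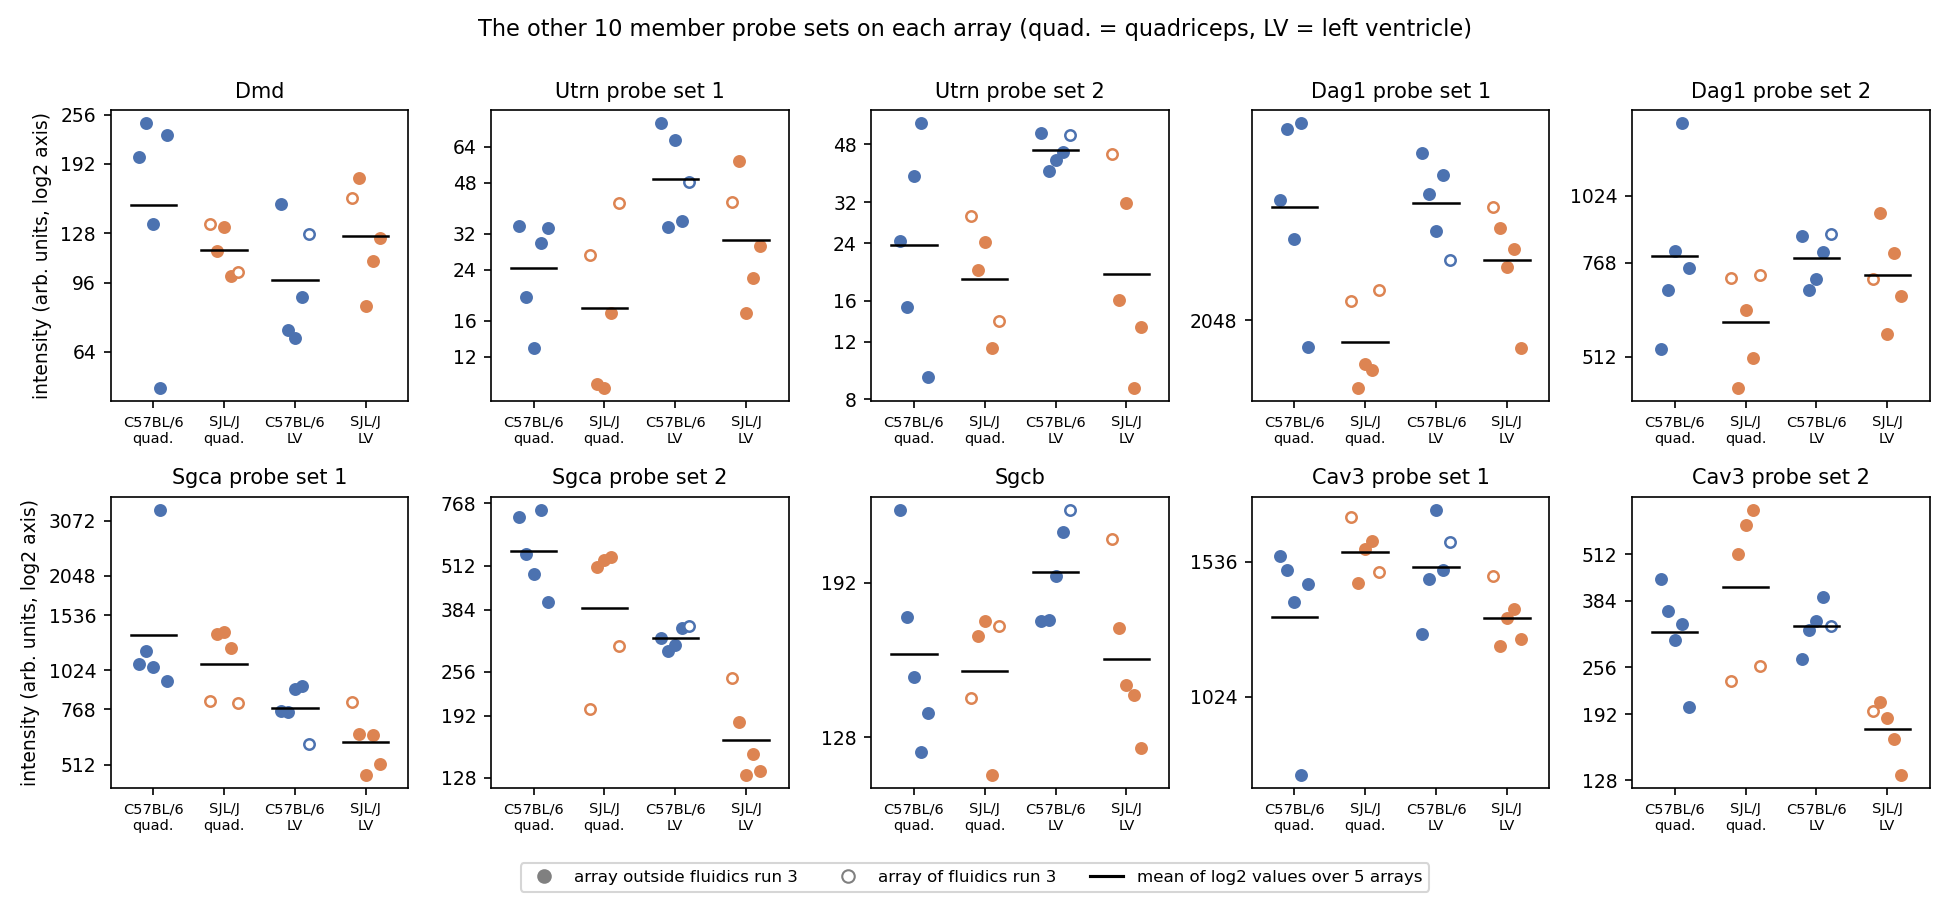
Intensity (arbitrary units, log2 axes that differ between panels) of the other 10 member probe sets on each of the 20 arrays by group, with open circles for fluidics run 3 and lines for the mean of the log2 values. Sgca probe set 2 and Cav3 probe set 2 do not overlap between the strains in left ventricle, and C57BL/6 quadriceps array 4 is the high point of Sgca probe set 1 (3319) and the low point of Dmd (52) and of Cav3 probe set 1 (810.2).

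Sarcospan, a small membrane protein that sits with the sarcoglycans, had the smallest p of the members between the strains in left ventricle. Its single probe set (102378_at) read 1613, 1230.3, 1469, 1456 and 1229.5 on C57BL/6 left ventricle arrays 1 to 5, and 376, 330.3, 269.5, 335 and 213 on SJL/J left ventricle arrays 1 to 5. The lowest C57BL/6 heart thus lay above the highest SJL/J heart by a wide margin. In quadriceps the values were 973, 684, 1039, 404 and 843 in C57BL/6 and 234, 372, 286, 233 and 954 in SJL/J. Here 4 of the 5 SJL/J arrays lay below every C57BL/6 array, and array 5, the one with the intermediate strain index, lay among the C57BL/6 values.

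In left ventricle Sspn fell by 2.22 ± 0.15 (SE) on the log2 scale in SJL/J, which is 4.66-fold lower (limma, adjusted p = 4.2e-07, n = 5 per group), and it stood 23rd by p among the 7121 probe sets. Without run 3 the log2 difference was -2.35 ± 0.15 (limma, adjusted p = 2.5e-06). Within run 3, the only run with left ventricle arrays of both strains (1 of each, with fast skeletal transcripts at 0.174 and 0.131 of the quadriceps level), the difference was -1.71, and with run as a block the limma adjusted p was 0.0245. Fitted with the Gapdh ratio of each array as a covariate, it was -1.54 with a limma adjusted p of 0.0866. The Gapdh ratios of the groups do not overlap, so this covariate and strain cannot be told apart here. Over all other alternatives and over each array left out in turn, the limma adjusted p of Sspn in left ventricle stayed between 3.1e-07 and 0.0245.

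In quadriceps the log2 difference of Sspn was -1.08 ± 0.38 (SE), with an unadjusted p of 0.0132 and a limma adjusted p of 0.0820 over all arrays. Without run 3 it was -1.36 ± 0.30 (limma, adjusted p = 0.0186), with 3 SJL/J values of 233 to 372 below the 5 C57BL/6 values of 404 to 1039. Leaving out SJL/J quadriceps array 5 alone gave -1.44 (limma, adjusted p = 0.0074), and leaving out C57BL/6 quadriceps array 4 alone gave -1.30 (limma, adjusted p = 0.0317). These were the only 2 of the 10 fits with 1 array left out that called it, and the highest limma adjusted p among the 10 was 0.174. Over the 13 other alternatives the difference ran from -1.58 to -0.19, and 2 called it. Within run 5 the difference was -0.47, where the only C57BL/6 array is array 4, the lowest of its group. The strain difference of Sspn in quadriceps minus that in left ventricle was 1.14 ± 0.44 (SE, limma, adjusted p = 0.0842, and 0.0621 without run 3), so the tissues were not shown to differ in it.

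The group means of Sspn ran from 1399 ± 167 (SD, n = 5) in C57BL/6 left ventricle through 789 ± 254 in C57BL/6 quadriceps and 416 ± 306 in SJL/J quadriceps to 305 ± 63.6 in SJL/J left ventricle. Normal heart lay above normal quadriceps on every array, by 0.89 ± 0.23 (SE) on the log2 scale (limma, adjusted p = 0.0058, and 0.0095 without run 3). In SJL/J the same contrast was -0.24 ± 0.35 (limma, adjusted p = 0.604), and -0.05 without run 3, with overlapping values. Of the neighbours in this order, the normal tissues did not overlap, while the strains in quadriceps and the tissues in SJL/J did.

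**Figure D3:**
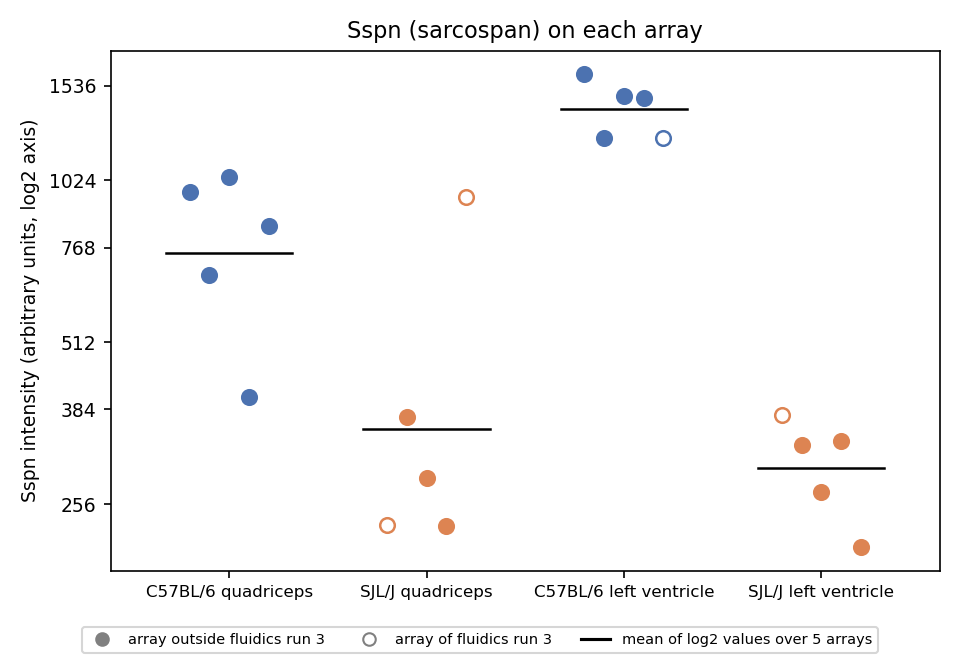
Sspn intensity (arbitrary units, log2 axis) on each of the 20 arrays by group, with open circles for the 4 arrays of fluidics run 3 and lines for the mean of the log2 values. SJL/J left ventricle arrays sit between 213 and 376 and C57BL/6 left ventricle arrays between 1229.5 and 1613, and the open circle at 954 is SJL/J quadriceps array 5.

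Caveolin-3 showed strain differences of opposite sign in the tissues on its dimmer probe set. Cav3 probe set 2 (99050_at) read 269.5, 320.5, 340.1, 395 and 330.1 on the C57BL/6 left ventricle arrays and 196, 207, 187.5, 165 and 132.5 on the SJL/J left ventricle arrays, without overlap. In quadriceps it read 439.5, 361, 303, 333 and 201 in C57BL/6 and 235, 512, 611, 669.9 and 258 in SJL/J. The 3 SJL/J quadriceps arrays outside run 3 lay above all 5 C57BL/6 arrays, and the 2 arrays with heart transcripts lay among them.

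In left ventricle Cav3 probe set 2 was 1.87-fold lower in SJL/J, with a log2 difference of -0.91 ± 0.14 (SE, limma, adjusted p = 0.00057, and -0.94 with adjusted p = 0.0017 without run 3). Within run 3 the difference was -0.75, which had a limma adjusted p of 0.415 in the fit blocked by run, and fitted with the Gapdh covariate it was -0.06 (limma, adjusted p = 0.959). In quadriceps the difference was 0.40 ± 0.32 (limma, adjusted p = 0.444), and 0.90 ± 0.24 (limma, adjusted p = 0.0381) without run 3. Within run 5 it was 0.83, and the fit blocked by run gave a limma adjusted p of 0.133. The strain difference in quadriceps minus that in left ventricle was 1.30 ± 0.37 (SE, limma, adjusted p = 0.0223), and 1.85 ± 0.30 (limma, adjusted p = 0.00057) without run 3. That call ended with run as a block, at 1.59 (limma, adjusted p = 0.0958), while Sgca probe set 1 at -1.80 and Cav3 probe set 1 at 1.09 were called in that fit (limma, adjusted p = 0.0033 and 0.0385). SJL/J heart differed from SJL/J quadriceps by -1.25 ± 0.29 on the log2 scale, without overlap (limma, adjusted p = 0.0074). With run as a block the difference was -0.33, where left ventricle array 1 is set against quadriceps arrays 1 and 5, the arrays with heart transcripts. In C57BL/6 the tissues differed by 0.05 ± 0.19 (limma, adjusted p = 0.849).

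The brighter probe set of Cav3 (162297_s_at) read 1562, 1499.5, 1361, 810.2 and 1435 in C57BL/6 and 1758, 1441, 1598, 1632 and 1490.2 in SJL/J quadriceps, and 1236, 1458, 1793, 1499 and 1629.5 in C57BL/6 and 1473, 1192, 1297, 1331 and 1218 in SJL/J left ventricle. All groups overlapped. Its strain differences had the signs of probe set 2 and were smaller, at 0.28 ± 0.19 (SE, limma, adjusted p = 0.347) in quadriceps and -0.22 ± 0.11 (limma, adjusted p = 0.138) in left ventricle, and neither was called. Without run 3 they were 0.26 and -0.24 (limma, adjusted p = 0.508 and 0.135). In SJL/J the heart differed from quadriceps by -0.28 ± 0.11 (limma, adjusted p = 0.0554), and without run 3 by -0.30 (limma, adjusted p = 0.0232).

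The paired probe sets of Sgca and of Cav3 thus moved by unequal amounts in left ventricle, and this was tested on their log2 ratio on each array. For Cav3 the log2 ratio of probe set 1 over probe set 2 was 2.20 ± 0.18 (SD, n = 5) in C57BL/6 and 2.89 ± 0.25 in SJL/J left ventricle, a difference of 0.69 (two-sided exact permutation p = 0.0079, the smallest that 252 splits allow, adjusted p = 0.0238 over 6 tests). The ratio for Sgca was 1.27 ± 0.29 (SD, n = 5) in C57BL/6 and 1.88 ± 0.14 in SJL/J, a difference of 0.61 with the same exact permutation p and adjusted p. For Dag1 it was 1.65 ± 0.18 and 1.63 ± 0.25, a difference of -0.02 (exact permutation p = 0.865). In quadriceps these differences were 0.10 for Dag1, 0.22 for Sgca and -0.11 for Cav3, with exact permutation p of 0.413 to 0.802. For Cav3 in quadriceps the difference without run 3 was -0.65 (exact permutation p = 0.143, where 3 against 5 arrays cannot go below 0.0357), and those of Dag1 and Sgca were 0.22 and 0.05. Without run 3 the left ventricle differences were 0.71 for Cav3 and 0.53 for Sgca, each with an exact permutation p of 0.0286, the smallest that 4 against 4 allows, and an adjusted p of 0.0857. The Gapdh ratio separated the same left ventricle groups in the same way (0.697 to 0.866 against 0.101 to 0.470), and its part in the unequal shifts was not tested.

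**Figure D4:**
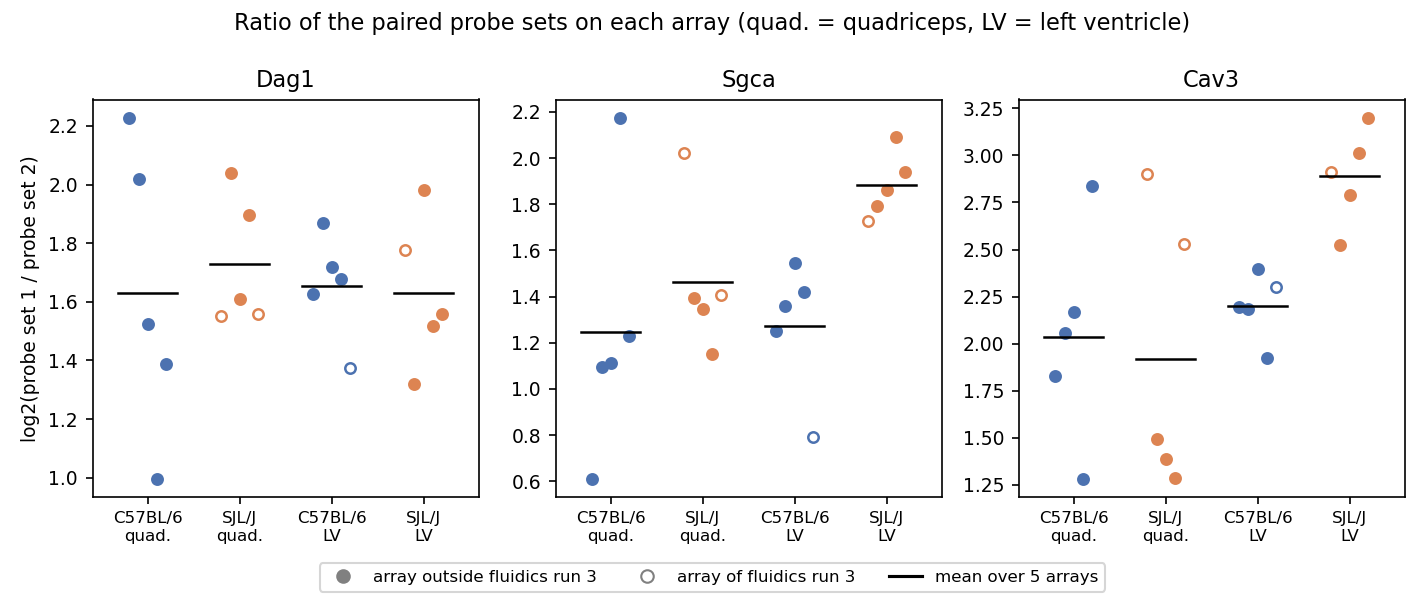
Log2 ratio of probe set 1 over probe set 2 on each array for Dag1, Sgca and Cav3 by group, with open circles for fluidics run 3 and lines for the mean of 5 arrays. In left ventricle the SJL/J values of Sgca and Cav3 lie above all C57BL/6 values, and those of Dag1 overlap.

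Transcripts of other cell types also differed between the strains. The marker counts below stand beside 11.5% of all probe sets called in quadriceps (9.66% without run 3) and 32.1% in left ventricle, in either direction. Of the 9 macrophage markers with a probe set 7 were tested, 4 rose in SJL/J quadriceps, and their summed intensity over all 9 ran from 672 to 1087 in C57BL/6 and from 1855 to 3096 in SJL/J quadriceps. In left ventricle the sum ran from 1529.9 to 2124 and from 2171 to 3254, with 3 of 7 markers higher and 1 lower. The 8 heart markers summed to 359 to 7106 on C57BL/6 and 541 to 50627 on SJL/J quadriceps arrays, and none of the markers of either list was at 0 on all arrays of a group. Among the adipocyte markers 3 of 6 tested rose in SJL/J quadriceps (5 of 6 without run 3), and of 8 endothelial markers 1 fell there and 1 rose and 3 fell in left ventricle. The part of these cells in the results for Sspn, Sgca and Cav3 was not tested.

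Other genes of the complex, its laminin-side ligands and its glycosylation were followed as a list of 31, of which 21 had a probe set and 15 were tested with their brightest one. In quadriceps 4 of 15 rose in SJL/J and 0 fell, where 11.5% of all probe sets were called in either direction. The list median was 0.46 against 0.08 for all probe sets. The 4 were Agrn (agrin, a matrix ligand of dystroglycan), Bgn (biglycan, a proteoglycan that binds the complex), Itga7 (the laminin receptor subunit integrin alpha 7) and Lamc1 (laminin gamma 1). Itga7 ran from 223 to 331.5 in C57BL/6 and from 445.5 to 526 in SJL/J quadriceps, without overlap, with a log2 difference of 0.76 ± 0.15 (SE, limma, adjusted p = 0.0078, and 0.0259 without run 3). Bgn had a mean of 381 ± 80.2 (SD, n = 5) in C57BL/6 and 1009 ± 390.4 in SJL/J quadriceps, a log2 difference of 1.35 ± 0.24 (limma, adjusted p = 0.0052). Agrn differed by 1.48 ± 0.35 (limma, adjusted p = 0.0198) and Lamc1 by 0.64 ± 0.18 (limma, adjusted p = 0.0416). Without run 3 the count was 2 (Bgn and Itga7), against 9.66% of all probe sets, and the list median was 0.33. Agrn and Lamc1 then had limma adjusted p of 0.0955 and 0.0505. All 4 genes were also higher in normal heart than in normal quadriceps. The values over all arrays include SJL/J quadriceps arrays 1 and 5, which carried heart transcripts. The part of these transcripts in the 4 rises was not tested. With run as a block Itga7 was at 0.87 (limma, adjusted p = 0.0386).

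In left ventricle 2 of the 15 rose in SJL/J, Lamc1 by 0.63 ± 0.18 (SE, limma, adjusted p = 0.0198) and Itgb1 (integrin beta 1) by 0.50 ± 0.14 (limma, adjusted p = 0.0190). The 2 that fell were Lama5 (laminin alpha 5), at -1.54 ± 0.37 (limma, adjusted p = 0.0070), and Des (desmin, the muscle intermediate filament), at -0.70 ± 0.12 (limma, adjusted p = 0.0010). The list median was 0.03 against 0.04 for all probe sets, of which 32.1% were called in either direction. Without run 3 the count was 4 higher, with Lama2 and Sgce added, and 2 lower, against 34.3% of all. Itga7 was at -0.12 ± 0.10 there (limma, adjusted p = 0.419), and its strain difference was larger in quadriceps than in left ventricle by 0.88 ± 0.17 (limma, adjusted p = 0.0024). In the interaction 4 of 15 were higher for quadriceps and 0 lower, against 14.5% of all in either direction. The 4 were Itga7, Agrn, Bgn and Lamb2 (laminin beta 2, 0.85 ± 0.28, limma, adjusted p = 0.0441). Between normal tissues 10 of 15 were higher in heart, where 48.4% of all probe sets were called in either direction. Of these 10, Lama2 (the muscle laminin alpha chain) was at 1.38 ± 0.18 and Sgce (epsilon-sarcoglycan) at 1.35 ± 0.22. The others were the laminin chains Lama4, Lama5, Lamb1, Lamb2 and Lamc1, and Agrn, Bgn and Itga7. Lama5 had a mean of 36.4 in C57BL/6 quadriceps, under the 68.8 used as the filter, so no fold is given for it there. In the same comparison 3 were lower: Plec (plectin) at -2.14 ± 0.19, Des at -0.62 ± 0.17 and Dtna. In SJL/J 7 were higher and 2 lower in heart, against 35.4% of all in either direction.

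Among relatives of the members, Sgce had means of 159 ± 56.4 (SD, n = 5) in C57BL/6 and 159 ± 40.7 in SJL/J quadriceps and of 388 ± 37.2 and 481 ± 97.6 in left ventricle, and was not called between strains with all arrays (limma, adjusted p = 0.950 and 0.167). Dtna (alpha-dystrobrevin, a cytoplasmic partner of dystrophin) differed by -0.41 ± 0.17 (SE, limma, adjusted p = 0.145) and -0.28 ± 0.20 (limma, adjusted p = 0.316), and in C57BL/6 it was lower in heart than in quadriceps by -0.56 ± 0.15 (limma, adjusted p = 0.0076). Sgcd, Dtnb, Sntb1 and Sntb2 were too dim to be tested, with group means of 3.56 (Sntb2 in C57BL/6 quadriceps) to 40.9 (Sgcd in SJL/J quadriceps).

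Of 10 genes of caveolae 5 were tested, and between tissues 4 of them (Cav1, Cavin2, Cavin3 and Ehd1) were higher in heart in C57BL/6 (0 lower) and the former 3 in SJL/J, with Cavin1 lower. Of all probe sets 48.4% were called between tissues in C57BL/6 and 35.4% in SJL/J. None was called between strains in quadriceps (0 of 5, against 11.5% of all). In left ventricle Cavin1, a coat protein of caveolae, fell with Cav3 probe set 2, by -0.50 ± 0.11 (SE, limma, adjusted p = 0.0040), while Cavin3 and Cavin2 rose by 0.77 ± 0.14 (limma, adjusted p = 0.0012) and 0.74 ± 0.21 (limma, adjusted p = 0.0167). Of the 5, 2 thus rose and 1 fell, against 32.1% of all called in either direction. Without run 3 Ehd1, a membrane-shaping ATPase, was also called lower, at -0.75 (limma, adjusted p = 0.0114). Cav1, the caveolin of endothelium and other non-muscle cells, read 2548 ± 188 (SD, n = 5) in C57BL/6 and 2702 ± 532 in SJL/J left ventricle, and differed by 0.07 ± 0.13 (SE, limma, adjusted p = 0.720). The strain difference of Cavin1 was larger in quadriceps than in left ventricle, by 0.87 ± 0.17 (limma, adjusted p = 0.0021, and 0.0010 without run 3), and Cavin1 in quadriceps was at 0.37 ± 0.14 (limma, adjusted p = 0.109). Ehd1 was the other of 2 genes called in the interaction (limma, adjusted p = 0.0396, and 0.0545 without run 3), where 14.5% of all probe sets were called. With run as a block, no gene of either list was called between strains in left ventricle, against 0.871% of all probe sets.

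**Figure D5:**
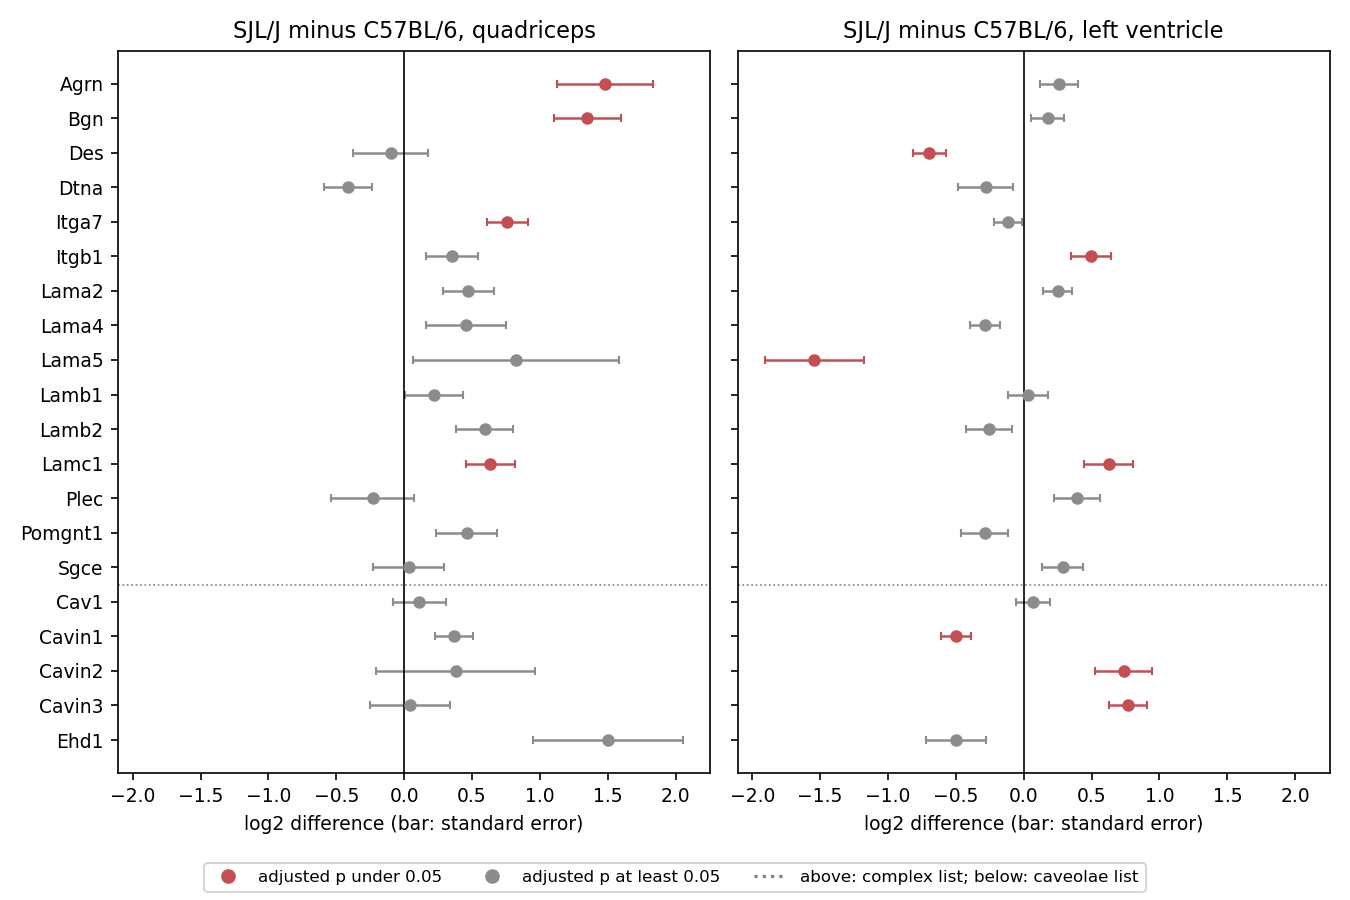
Log2 difference, SJL/J minus C57BL/6, of the 15 tested genes of the complex list (above the dotted line) and the 5 of the caveolae list (below it) in quadriceps and left ventricle, with bars for the standard error and red for a limma adjusted p under 0.05. In quadriceps the 4 red points lie above 0, and in left ventricle 4 red points lie above 0 and 3 below.

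Genes whose pattern over the 4 group means (16 arrays, run 3 left out) was most like that of a member were found by the root mean square difference of centred log2 means. For Sspn they were Xdh (xanthine dehydrogenase) at 0.190, Ctsf (cathepsin F) at 0.268 and Snx17 (a sorting nexin) at 0.275. Xdh had log2 means of 6.37 in C57BL/6 and 5.18 in SJL/J quadriceps, and of 7.83 and 5.15 in left ventricle, which is the order seen for Sspn. The other members had closer matches, with differences of 0.0172 to 0.0432. These were Jtb, Atp7b and Usp34 for Dmd, Pigx, Cinp and Rab11a for Dag1, Psmd7, Map4 and Rrm1 for Sgca, Coro2b, Dcaf12 and Gfap for Sgcb, and Atp6v1e1, Pole3 and Furin for Cav3. All 4 log2 means of Atp7b lay under the filter signal. For genes with a pair, only the pattern of probe set 1 was used. In left ventricle with all arrays, probe set 2 of Sgca and of Cav3 was called between strains and probe set 1 was not. Of the 6 tested genes, Sspn was the farthest from its nearest gene by the root mean square difference. That measure is not scaled to how far a gene's group means spread, so it cannot tell an unusual pattern from large differences between groups.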

How the data were processed

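RNA of 20 tissue samples was hybridised to 20 Affymetrix MG_U74Av2 arrays, 5 per group. The authors deposited linear intensities, a value for every probe set on every array, and per the labels' protocols the arrays were run by the standard Affymetrix procedure. The deposited intensities have nearly equal trimmed means (199.4 to 199.9 over the 2nd to 98th percentile), and no source used here names the summarising software. Per the file headers, 2 chip lots, 2 wash protocols and, from gaps over 30 minutes between hybridisation times, 5 fluidics runs were told apart.

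Of 12488 probe sets 66 controls were left out. The platform annotation gives 10855 probe sets 1 symbol, 396 several and 1193 none. Intensities were floored at 3.1 (their 5th percentile) and put on the log2 scale. Probe sets whose mean exceeded 68.8, the median signal, in at least 1 group entered a linear model per probe set (limma 3.58.1, R 4.3.3, lmFit and eBayes with a mean-variance trend), within the groups compared, or over 20 arrays for the interaction. Adjusted p-values are Benjamini-Hochberg over 7121 probe sets, and fold changes are ratios of geometric means. The fit was tested on simulated data. Each gene of the pathway and marker lists was read by its brightest probe set. The text names all members, list genes that were called or belong to a member's family, and, for each member, the 3 genes closest in pattern.

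The members and lists were chosen with earlier results of these data known. Samples are from 5 mice per group. Alternatives were other scalings, floors, filters and variance models, blocks for run, chip lot and replicate number, a Gapdh covariate and arrays left out. The number of arrays limits the precision.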

Additional observations from a re-analysis of the deposited data

Results flagged for a closer look

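Of 44 groups of 5 values checked for a sample far from the others, 3 held one, and chance gives about 1 in 20. Sgca probe set 1 read 3319.1 on C57BL/6 quadriceps array 4, where the other 4 arrays read 945.9 to 1180.1. Cav3 probe set 1 read 810.2 on the same array, where the others read 1361.4 to 1562.1. This array was run with SJL/J quadriceps arrays and had the highest fast skeletal value, 2.13 of the group's median. Sspn read 953.6 on SJL/J quadriceps array 5, where the others read 233 to 372.4. That array belongs to run 3, with a heart value of 0.966 and a strain index of 0.475, and the part of these in the Sspn value was not tested.

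The strain difference of Cav3 probe set 2 in quadriceps exceeded that in left ventricle by 1.30 on the log2 scale (limma, adjusted p = 0.0223), 1 of 9 members whose difference between tissues passed the test.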

How the results depend on the processing

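Of the single members' values under an alternative, 912 kept direction and side of the threshold, 30 newly passed it, 18 no longer passed and 51 changed sign, and the cause was not tested. A value that changed sign was counted only among the 51, even where it also crossed the threshold, as Dmd did in quadriceps with a run block. Each comparison is given below as all probe sets called and then as members called. In quadriceps 820 probe sets were called with all arrays, 419 with the Gapdh covariate, 1489 without run 3 and array 4 of C57BL/6 quadriceps (chosen after seeing the data), and 512 (without C57BL/6 array 2) to 1238 (without C57BL/6 array 4) with 1 array left out, and about as few (521 to 525) without C57BL/6 array 3 or SJL/J array 2 or 3. Members called there were 0 with all arrays, 1 with median centring, 2 without run 3, 4 with a run block, 4 with a chip lot block, 1 with the Gapdh covariate, 3 without run 3 and array 4, and 0 to 2 with 1 array left out. In left ventricle 2288 became 62 with a run block, 42 with the Gapdh covariate and 1838 to 2654 with 1 array left out. Members there went from 3 to 1 with a single, brightest probe set per gene, 1 with a run block, 0 with the Gapdh covariate, and 3 to 5 with 1 array left out. Between tissues in C57BL/6, 3450 became 3068 to 4001, and 3 members became 2 to 4, with 1 array left out, and a run block could not be fitted. In SJL/J 2519 became 16 with a run block and 1862 to 2992 with 1 array left out, and 3 members became 1 with the brightest probe set, 0 with a run block and 3 to 4 with 1 array left out. In the interaction 1035 became 324 with a run block and 780 to 1579 (without C57BL/6 quadriceps array 4), and 1 member became 0 with the brightest probe set, 2 without run 3, 2 with a run block (Sgca probe set 1 and Cav3 probe set 1, in place of Cav3 probe set 2) and 1 to 2 with 1 array left out.

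Median centring moved the median of all probe sets by -0.149 in quadriceps, -0.205 between normal tissues and -0.156 in the interaction, and the split of higher and lower calls from 436 and 384 to 280 and 609 in quadriceps, from 2066 and 1384 to 1445 and 1898 between normal tissues, and from 596 and 439 to 380 and 652 in the interaction. Signs changed as follows. In quadriceps Dmd was at 1.15 with a run block, 1.16 with a chip lot block and 0.41 with the Gapdh covariate, Sgcb at 0.28, 0.31 and 0.25 under the same 3, and without run 3 and array 4 Sgca probe set 1 was at 0.29 and probe set 2 at 0.0060. In left ventricle Dag1 probe set 1 was at 0.12 with a run block and 0.063 with the Gapdh covariate, Sgca probe set 1 at 0.45 and 0.20, and with the covariate Sgcb was at 0.69 and Cav3 probe set 1 at 0.30. In C57BL/6 tissues Dag1 probe set 1 was at -0.19 and Cav3 probe set 2 at -0.15 with median centring, and Dag1 probe set 2 at 0.043 and Cav3 probe set 2 at -0.035 with quantile normalization. In SJL/J tissues Sgcb was at -0.0032 with median centring, -0.0022 with quantile normalization and -0.045 without run 3, and with a run block Dag1 probe set 2 was at -0.018 and Sgca probe set 1 at 0.0066. In the interaction Sgca probe set 1 was at -0.11 with median centring and -1.80 with a run block, and Dmd at 0.85 with a run block. With 1 array left out, signs changed within these ranges: in quadriceps Sgca probe set 1 -0.43 to 0.019 and Sgcb -0.16 to 0.071; in C57BL/6 tissues Cav3 probe set 2 -0.11 to 0.17, Dag1 probe set 1 -0.069 to 0.058 and probe set 2 -0.16 to 0.20; in SJL/J tissues Dmd -0.0069 to 0.26, Sgcb -0.068 to 0.13 and Sspn -0.39 to 0.11; in the interaction Sgca probe set 1 -0.080 to 0.37.

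Correlations of same-numbered arrays were -0.199 to 0.134, so replicate numbers showed no clear pairing. These correlations cannot tell whether tissues of the same number came from the same mouse. With a replicate block 659, 1923, 3196, 1980 and 930 probe sets were called in the 5 comparisons, and 0, 3, 3, 3 and 1 members, as without it. Dimness limits Utrn, whose probe sets lay under the median signal in every group.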
